A study of Mus musculus with 16 samples.

Results

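The difference that deletion of Ppara in cardiomyocytes made to the heart transcriptome was measured 12 h after lipopolysaccharide (LPS), the bacterial wall component used to provoke a septic response. The comparison takes the 4 LPS-treated libraries labelled PPARa deficient and the 4 LPS-treated libraries labelled PPARa-Flox, 8 of 16 libraries in all, and covers every gene tested. All animals were male C57BL/6J mice aged 8 to 12 weeks, and the LPS groups received 5 mg/kg into the peritoneum. The other 8 libraries are the same 2 genotypes given phosphate buffered saline (PBS), and they serve here as the unchallenged background. Headers number the PBS libraries from 957 to 1075 and the LPS libraries from 1739 to 1769. What the numbers stand for is not given, so LPS and any difference between these number ranges cannot be told apart. Flox animals carry the loxP-flanked gene that the deficient animals carry too. The labels place the loss in cardiomyocytes but name neither the Cre line nor a Cre-only group, so that deletion and any effect of Cre or its induction cannot be told apart. Libraries are called flox 1 to 4 and deficient 1 to 4 after their replicate numbers.

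PPARα is a nuclear receptor that binds fatty acids and their derivatives, pairs with an RXR receptor and switches on genes for fatty acid uptake, storage and oxidation. The adult heart draws most of its energy from fatty acids, and PPARα is one of the main regulators of that supply in the cardiomyocyte. During endotoxaemia the heart is known to lower Ppara and fatty acid oxidation. By its title the series asks about the receptor's part in septic cardiomyopathy and mitochondrial function.

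The 8 LPS libraries held 65569134 to 74498600 estimated counts, and 22.8% to 29.2% of them fell on mitochondrial transcripts. Myh6, the cardiac myosin heavy chain, lay between 17240 and 21520 CPM (counts per library scaled to a common total, on TMM-scaled library sizes) in these libraries. The extraction label speaks of islets, yet Ins1, Ins2, Gcg, Sst and Pdx1, which mark pancreatic islets, had 0 counts in all 8. Levels are of whole heart tissue, so fewer cells of a type and less RNA per cell cannot be told apart. Nothing in the labels says whether replicates came from separate hearts, and p-values then measure the spread between these samples. Genotype did not separate the 8 libraries on the first component of the 1000 most variable genes, which held 19.0% of the variance, and deficient 3 lay farthest out on it. On the third component (15.55%) flox 1 to 4 lay at -7.5, 13.7, 31.4 and 26.3. Deficient 1 to 4 lay at -28.6, -23.3, -12.0 and -0.063, so that the ranges overlapped there too.

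Ppara (chr15:85734983-85802819, GRCm38, plus strand) was low in every LPS heart. Flox 1 to 4 had 10.2, 7.23, 13.1 and 14.7 CPM and deficient 1 to 4 had 4.25, 6.32, 11.9 and 9.45 CPM. The groups overlapped, and the log2 difference of -0.50 ± 0.27 (SE, n = 4 per group) did not pass (edgeR quasi-likelihood test, adjusted p = 0.651). Under PBS the means were 50.2 CPM in flox and 14.6 CPM in deficient hearts, a log2 difference of -1.78 ± 0.28 (adjusted p = 0.00287). The counts cover the whole gene, so transcripts without the deleted part cannot be told from intact ones, and other cells of the heart keep the gene.

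The largest difference among called genes was in Esr1, the estrogen receptor α gene (chr10:4611593-5005614, plus strand). Flox libraries had 0.118, 0.516, 0.215 and 0.0522 CPM, with 2 of the 4 under the floor of 12 estimated counts taken as 3 read pairs. Deficient libraries had 28.3, 42.3, 111 and 152 CPM, and the groups did not overlap (log2 8.54 ± 0.69, adjusted p = 1.96e-06 by edgeR and 0.0596 by limma-voom, the size depending on the prior count). The deficient mean was 83.4 CPM after LPS against 3069 CPM under PBS. Some inducible Cre proteins are fused to a part of the estrogen receptor, and the labels do not name the Cre line used here. Counts per gene do not show which part of Esr1 the reads cover, so transcripts of the gene itself and of a construct holding its sequence cannot be told apart.

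Across 18713 genes tested, 159 were lower (0.85%) and 72 higher (0.385%) in deficient than in flox hearts after LPS, at a Benjamini-Hochberg adjusted p under 0.05 with edgeR, 1.23% in either direction. The lower genes included 15 of 22 of mitochondrial fatty acid oxidation and 11 of 26 of lipid droplets and triglyceride synthesis, and the higher genes 3 of 15 of cardiac stress and 2 of 22 of the sarcomere. A difference of at least 2-fold was reached by 62 lower and 18 higher genes. The 4 libraries of each genotype did not overlap in 155 of the 159 lower and 66 of the 72 higher genes, against 2.79% and 2.53% of all genes tested. The genes were called on these same libraries, so such separation largely follows from the call and is no separate support. The median log2 difference was -0.87 over the lower genes, 0.73 over the higher genes and 0.0077 over all genes. At an unadjusted p under 0.05 there were 1709 genes (9.13%).

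The calls on the lower side held up better when libraries were left out. Of the 159 lower genes, 111 stayed called whichever 1 of the 8 LPS libraries was omitted, and of the 72 higher genes, 20. The count of higher genes was 36 without flox 1, 33 without flox 2, 39 without deficient 3 and 41 without deficient 4. It was 25 in a fit to the 8 LPS libraries alone, where 116 genes were lower. DESeq2 called 244 lower (1.3%) and 200 higher genes (1.07%), and limma-voom 171 (0.914%) and 68 (0.363%). No called gene changed direction under any alternative. Flox 4 was the lowest of the 4 flox libraries in 89 of the 159 lower genes, which was not counted over all genes. It had the largest summed level of the 42 interferon response genes in its group (8090 CPM, the others 3420 to 5990). A link between these observations was not tested. Without flox 4 there were 168 lower and 71 higher genes.

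**Figure D1:**
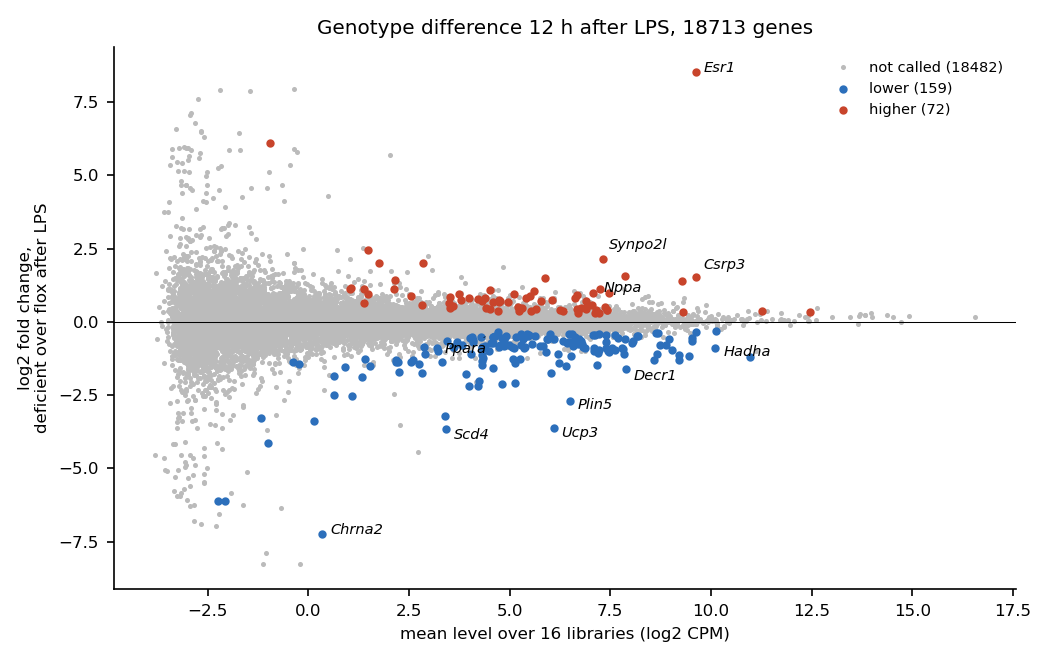
Log2 fold change of deficient over flox hearts after LPS (vertical) against the mean level over all 16 libraries (horizontal, log2 CPM), 1 point per gene tested. Blue points are the 159 lower and red points the 72 higher genes, and Ppara is labelled although it was not called. The fitted sizes of Chrna2 and Esr1 depend on the prior count, since 1 genotype is near 0.

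Mitochondrial fatty acid oxidation held the largest share of lower genes among the lists. Of 22 genes tested, 15 were lower and none higher (edgeR), the same counts as with DESeq2 and limma-voom, and the list's median log2 difference was -0.50. The called members ranged from -1.59 to -0.34, and in all 15 the 2 genotypes did not overlap, which largely follows from the call. Of these 15 calls, 14 were also made under PBS. The 7 uncalled members ranged from -0.27 to 0.16.

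Decr1, which prepares unsaturated fatty acyl-CoA for β-oxidation, had 362, 391, 343 and 346 CPM in flox and 124, 120, 119 and 115 CPM in deficient hearts (log2 -1.59 ± 0.08, adjusted p = 2.86e-08). The 8 libraries fell into 2 narrow bands about 3.02-fold apart. Acadvl, the very long-chain acyl-CoA dehydrogenase of the first step, had 977, 982, 924 and 872 CPM in flox and 444, 419, 404 and 420 CPM in deficient hearts (-1.15 ± 0.07, adjusted p = 1.76e-07). Etfdh, which passes the electrons of acyl-CoA dehydrogenases to ubiquinone, fell in the same way from 454 to 512 CPM in flox to 179 to 204 CPM in deficient hearts (-1.31 ± 0.08, adjusted p = 1.27e-07). Ech1, an auxiliary isomerase for unsaturated chains, ran from 767 to 898 CPM against 308 to 383 CPM (-1.30 ± 0.10). Acaa2, the thiolase that releases acetyl-CoA, ran from 677 to 737 CPM against 351 to 391 CPM (-0.95 ± 0.08). None of these 5 genes had a deficient library near the flox range.

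Hadha and Hadhb encode the α and β subunits of the mitochondrial trifunctional protein, which carries out the later steps on long chains. Hadha had 1406, 1354, 1319 and 1315 CPM in flox and 751, 719, 762 and 712 CPM in deficient hearts (-0.87 ± 0.06, adjusted p = 6.48e-07). Hadhb, chosen after its values were seen, had 891, 848, 816 and 857 CPM against 535, 557, 561 and 539 CPM (-0.64 ± 0.08, adjusted p = 0.000112). The 2 genes lie head to head on chromosome 5 with 85 bases between them in GENCODE. The RefSeq promoter window of Hadhb (GRCm38.p6, chr5:30155003-30155302, plus strand) is shown because it holds the start of both genes, with the bases between them in capitals:
Hadhb window: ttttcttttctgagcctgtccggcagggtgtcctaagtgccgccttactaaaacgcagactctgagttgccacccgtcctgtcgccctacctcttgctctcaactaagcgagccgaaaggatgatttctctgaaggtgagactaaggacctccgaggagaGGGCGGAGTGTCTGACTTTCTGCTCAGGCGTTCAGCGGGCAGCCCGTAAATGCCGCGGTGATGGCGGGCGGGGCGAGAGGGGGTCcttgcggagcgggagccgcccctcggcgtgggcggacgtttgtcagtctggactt
The stretch in capitals is 69.4% G or C and holds 9 CG dinucleotides, while the whole window is 60.7% G or C against a median of 52.7% over the windows of all genes. No copy of AGGTCA, the core sequence that PPAR and RXR recognise, was found on either strand of this window.

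Transcripts for the activation of fatty acids and their passage into mitochondria were lower at several steps. Of 12 genes tested, edgeR called 5 lower and none higher, all 5 also lower under PBS, with a median of -0.35. DESeq2 called 7 lower and 1 higher, limma-voom 6 and 0, and edgeR without flox 4 and deficient 3 together 5 and 1. Slc25a20, the carnitine-acylcarnitine carrier of the inner membrane, had 228, 242, 220 and 204 CPM in flox and 83, 82.9, 75.9 and 77.7 CPM in deficient hearts (-1.48 ± 0.11, adjusted p = 6.48e-07). Cpt2, which reforms acyl-CoA inside the mitochondrion, ran from 204 to 229 CPM against 91.3 to 122 CPM (-1.06 ± 0.10). Cpt1b, the muscle form of the enzyme that controls entry, ran from 507 to 587 CPM against 287 to 324 CPM (-0.80 ± 0.08, adjusted p = 1.82e-05). Acsl1, which makes long-chain acyl-CoA, had 663 to 723 CPM in flox and 335, 334, 239 and 343 CPM in deficient hearts (-1.13 ± 0.15). Slc22a5, the carnitine importer, ran from 22.5 to 24.7 CPM against 10.6 to 13.8 CPM (-0.87 ± 0.13). In Acsl1 and Slc22a5 deficient 3 was the lowest library. The 7 members that were not called ranged from -0.39 to 0.50.

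Peroxisomes shorten very long chains before mitochondria take them over. Of 18 peroxisomal genes tested 5 were lower and none higher, with a median of -0.22, and 1 of the 5 was also called under PBS. Abcd3, a peroxisomal importer of acyl-CoA, ran from 85.7 to 99.2 CPM against 39.0 to 46.7 CPM (-1.08 ± 0.07, adjusted p = 3.82e-07).

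Pex11a, which promotes peroxisome division, ran from 21.0 to 30.2 CPM in flox against 9.22 to 14.4 CPM in deficient hearts (-1.08 ± 0.17). Hsd17b4, the second enzyme of the peroxisomal spiral for branched and very long chains, ran from 82.0 to 105 CPM against 49.5 to 66.2 CPM (-0.73 ± 0.10). Ehhadh, its counterpart for straight chains, ran from 13 to 23.9 CPM against 8.79 to 12.2 CPM (-0.85 ± 0.19, adjusted p = 0.0354). That call was lost without flox 1, flox 2, deficient 1, deficient 2 or deficient 4 (adjusted p 0.0962 to 0.148) and with limma-voom (0.0516). Cat, the peroxisomal catalase that removes hydrogen peroxide, had 282, 271, 255 and 204 CPM in flox and 156, 131, 114 and 141 CPM in deficient hearts (-0.90 ± 0.13, adjusted p = 0.0013).

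Lipid droplet, lipolysis and triglyceride genes differed more widely after LPS than their calls under PBS. Of 26 tested, 11 were lower after LPS and 2 under PBS, none higher in either, with medians of -0.45 and -0.14. The 2 counts come from separate tests, and their difference was not tested. Plin5, the droplet coat protein that tethers droplets to mitochondria, had 146, 157, 173 and 105 CPM in flox and 24.5, 19.7, 16.4 and 28.4 CPM in deficient hearts (-2.71 ± 0.22, adjusted p = 1.83e-06). Scd4, the stearoyl-CoA desaturase of the heart, had 17.7, 19.0, 23.7 and 10.1 CPM against 2.16, 1.33, 0.537 and 1.52 CPM (-3.66 ± 0.36, adjusted p = 1.47e-05), the largest decrease among the 15 genes named for the size of their fall. In both genes flox 4 was the lowest of the flox libraries and still lay above every deficient one.

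Plin2, the general droplet coat, was chosen after its values were seen because its genotypes were level under PBS, with means of 44.9 and 44.4 CPM. After LPS it had 300, 330, 279 and 274 CPM in flox and 176, 168, 156 and 131 CPM in deficient hearts (-0.91 ± 0.13, adjusted p = 0.000963; interaction adjusted p = 0.201). Acacb, which makes the malonyl-CoA that restrains Cpt1b, ran from 338 to 450 CPM against 204 to 250 CPM (-0.80 ± 0.09). Dgat2, the last enzyme of triglyceride synthesis, ran from 250 to 325 CPM against 168 to 200 CPM (-0.70 ± 0.09). Under PBS neither was called (log2 -0.18 ± 0.09 and -0.30 ± 0.09, edgeR adjusted p 0.894 and 0.353). Their interactions had edgeR adjusted p-values of 0.174 and 0.615. Adipocyte markers were near 0 in the LPS hearts, their 10 genes summing to at most 1.0 CPM in any library, with Adipoq at 0 in all 8.

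Of 11 fatty acid uptake and binding genes, 3 were lower and none higher, with a median of -0.20. Fabp3, the heart's fatty acid binding protein, had 2637, 3019, 3071 and 1930 CPM in flox and 1065, 1110, 1264 and 1227 CPM in deficient hearts (-1.19 ± 0.12, adjusted p = 2.95e-05). Slc27a1, a fatty acid transporter, ran from 142 to 273 CPM against 97.8 to 120 CPM (-0.91 ± 0.17, adjusted p = 0.0109). Vldlr, a receptor for triglyceride-rich lipoproteins, ran from 204 to 280 CPM against 125 to 134 CPM (-0.88 ± 0.18, adjusted p = 0.0187), a call lost without flox 2, flox 3, deficient 1, deficient 2 or deficient 3 (adjusted p 0.0512 to 0.0662).

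**Figure D2:**
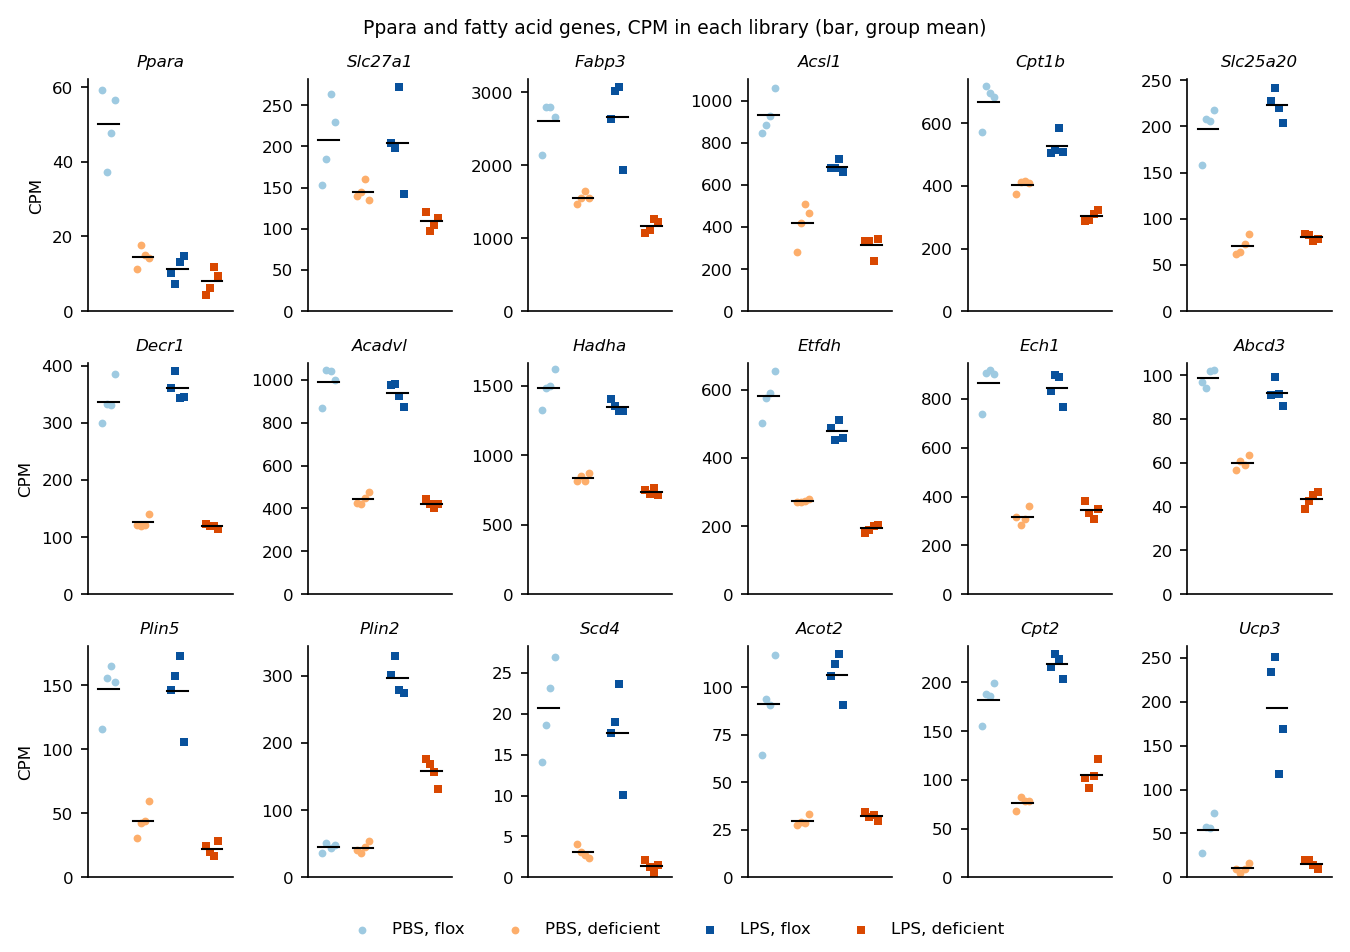
CPM of Ppara and 17 fatty acid genes in each library, PBS groups as circles and LPS groups as squares, with 4 points per group and a bar at the group mean (linear axes from 0). Ppara overlapped between the LPS groups, and in each of the other genes every deficient LPS square lies below every flox LPS square.

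Uncoupling and thioesterase genes held some of the largest differences. Ucp3, a mitochondrial carrier tied to fatty acid oxidation, had 234, 251, 117 and 169 CPM in flox and 20.2, 19.2, 13.6 and 9.91 CPM in deficient hearts (-3.62 ± 0.38, adjusted p = 2.82e-05). Its flox mean was 193 CPM after LPS and 53.6 CPM under PBS, and its deficient means were 15.7 and 10.1 CPM. Ucp3 was 1 of 3 lower among 15 uncoupling and carrier genes, beside Slc25a34 (184 to 220 against 71.3 to 126 CPM, -1.0 ± 0.14) and Slc25a22, a glutamate carrier (47.5 to 59.1 against 25.5 to 34.2 CPM, -0.79 ± 0.14). Acat1, the mitochondrial acetoacetyl-CoA thiolase of ketone body metabolism, was lower too (406 to 436 against 318 to 324 CPM, -0.37 ± 0.06).

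Of 11 acyl-CoA thioesterases, which free fatty acids from coenzyme A, edgeR and limma-voom called 4 lower and none higher, and DESeq2 4 lower and 1 higher. The 4 edgeR calls were Acot1, Acot2, Acot3 and Acot4, related neighbours on chromosome 12 between bases 83987861 and 84060402. How alike their sequences are was not measured. Reads may be split between related genes, so each value is uncertain. Acot2, the mitochondrial form, had 106, 112, 117 and 90.8 CPM in flox and 34.2, 31.6, 32.9 and 29.8 CPM in deficient hearts (-1.73 ± 0.14, adjusted p = 1.96e-06). Acot1, the cytosolic form, ran from 23.3 to 46.2 CPM against 6.26 to 10 CPM (-2.18 ± 0.25). Acot4 ran from 4.56 to 6.37 CPM against 1.84 to 2.96 CPM (-1.26 ± 0.23, adjusted p = 0.00666, and 0.077 without flox 4 and deficient 3 together). Acot3 had 78, 111, 105 and 69 estimated counts in flox and 4, 4, 17 and 8 in deficient hearts, where 3 libraries were under the floor.

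Beyond these lists, the 15 genes with the largest decrease included several with other roles, and all 15 stayed called without any 1 LPS library (adjusted p at most 0.0371). Acsf2, an acyl-CoA synthetase, had 59.5, 52.1, 38.5 and 40.8 CPM in flox and 11.3, 12, 10.2 and 11 CPM in deficient hearts (-2.10 ± 0.14, adjusted p = 2.77e-07). Fbp2, the muscle fructose bisphosphatase, ran from 21.6 to 32.1 CPM against 4.62 to 11.8 CPM (-1.76 ± 0.29). It was the only gene lower among 30 of glucose uptake, glycolysis and pyruvate dehydrogenase control. Fah, the last enzyme of tyrosine breakdown, ran from 16.9 to 47.2 CPM against 4.34 to 12.5 CPM (-2.19 ± 0.34). Lgals4, a galectin whose gene starts 1606 bases after the end of Ech1, ran from 42.1 to 76.2 CPM against 11.4 to 15.4 CPM (-2.09 ± 0.20).

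Scn4b, a sodium channel β subunit among these 15, had 24.4, 27.4, 19.6 and 16.3 CPM in flox and 4.86, 5.94, 5.58 and 5.49 CPM in deficient hearts (-2.01 ± 0.31, adjusted p = 0.00172). Ptp4a1, a protein tyrosine phosphatase, ran from 154 to 224 CPM against 49.4 to 74.9 CPM (-1.50 ± 0.20), and Myrf, a membrane-bound transcription factor, from 12.9 to 19.4 CPM against 4.04 to 5.88 CPM (-1.73 ± 0.25). For Ptp4a1 and Myrf the PBS difference was not called (adjusted p 0.647 and 0.316). Myrf was lower under PBS too (log2 -0.86 ± 0.25), and its interaction had an edgeR adjusted p of 0.815. Chrna2, a nicotinic receptor subunit chosen after its values were seen, had 190, 291, 231 and 127 estimated counts in flox and 5, 0, 0 and 0 in deficient hearts. All 4 deficient libraries were under the floor, and no fold is given.

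Hmox1, the heme-degrading enzyme of the oxidative stress response, had 114, 75.9, 47.2 and 66.5 CPM in flox and 35.2, 29.9, 37.7 and 24.8 CPM in deficient hearts (-1.25 ± 0.26, adjusted p = 0.0227). Its call was lost without flox 1, flox 2, deficient 2 or deficient 4 (adjusted p 0.0586 to 0.088). Under PBS the Hmox1 means lay the other way, at 10.8 CPM in flox and 17.7 CPM in deficient hearts. That difference was not called (0.71 ± 0.26, edgeR adjusted p = 0.638), and the interaction had an adjusted p of 0.1575. Hmox1 and Cat were the only 2 that edgeR called among 19 Nrf2 and metallothionein genes, and DESeq2 and limma-voom called 3 each. Fbxo31, an F-box subunit of a ubiquitin ligase, was the only one that edgeR called among 16 ubiquitin ligase and FoxO genes (378 to 453 against 239 to 349 CPM, -0.58 ± 0.11, adjusted p = 0.00822). Bnip3, a mitophagy receptor, overlapped between genotypes (249 to 368 against 185 to 252 CPM, -0.55 ± 0.12, adjusted p = 0.0369), and its call was lost without flox 1, flox 2, deficient 2, deficient 3 or deficient 4 (adjusted p 0.11 to 0.142) and without each of 5 PBS libraries (0.0516 at the lowest).

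The genes that were higher in deficient hearts after LPS included several of the cardiomyocyte. Synpo2l, an actin-binding protein of the Z-disc (chr14:20658946-20668354, minus strand), had 54.6, 42.3, 69.8 and 78.3 CPM in flox and 188, 370, 349 and 181 CPM in deficient hearts (2.15 ± 0.23, adjusted p = 4.43e-05). Its PBS means were 148 and 158 CPM, between the LPS groups. Csrp3, the muscle LIM protein that anchors at the Z-disc (chr7:48830398-48848033, minus strand), had 479, 357, 335 and 361 CPM against 823, 1102, 1270 and 1192 CPM (1.52 ± 0.14, adjusted p = 1.09e-05), with PBS means of 766 and 894 CPM. The flox mean of each gene was lower after LPS than under PBS, and the deficient mean was higher. The interaction had an adjusted p of 0.0696 for each, the smallest among the called genes.

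Flnc, the muscle filamin, had 492, 244, 310 and 324 CPM in flox and 520, 1070, 986 and 1030 CPM in deficient hearts (1.40 ± 0.20, adjusted p = 0.00103). Deficient 1 stood only just above the highest flox heart. Nppa, the atrial natriuretic peptide gene that ventricles re-express under load, had 57.6, 67.7, 75.1 and 72.2 CPM against 110, 112, 176 and 201 CPM (1.13 ± 0.21, adjusted p = 0.00993, and 0.0638 without flox 4 and deficient 3 together). Under PBS its means were 130 CPM in flox and 255 CPM in deficient hearts (0.98 ± 0.21, edgeR adjusted p = 0.0611). In each genotype the mean was lower after LPS, at 68.2 and 150 CPM. The interaction had an unadjusted p of 0.602 (edgeR). Deficient 3 and 4 were the higher 2 for Nppa, as they were for Esr1. The atrial markers Bmp10, Sln and Myl7 held at most 16 estimated counts in any of the 8 libraries, with Bmp10 at 0 in all, and Myl4 held 49 to 117. The 10 atrial and conduction markers, Nppa included, summed to 82.5 to 110 CPM in flox and 140 to 236 CPM in deficient hearts. Of the 6 tested members other than Nppa 5 were positive, up to 0.65, but none was called by edgeR, DESeq2 or limma-voom. Of these 6, 1 did not overlap between genotypes (over all genes tested 2.79% did not overlap as lower and 2.53% as higher). The part of atrial tissue in the Nppa difference was not tested. Synpo2l, Flnc and Nppa were the 3 that edgeR called of 15 cardiac stress genes, whose median was 0.63, and none was lower.

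Lrtm1, a leucine-rich repeat membrane protein, had 28.7, 39.7, 34.0 and 37.9 CPM in flox and 54.2, 83.3, 164 and 109 CPM in deficient hearts (1.55 ± 0.26, adjusted p = 0.00441). Both groups lay far below the PBS means of 346 and 445 CPM. Lrrc10, a cardiac leucine-rich repeat protein, ran from 62.0 to 82.1 CPM against 110 to 194 CPM (1.0 ± 0.19, adjusted p = 0.0109, and 0.0524 without flox 2). Hspb7, the cardiovascular small heat shock protein, ran from 2406 to 2829 CPM against 3304 to 3595 CPM (0.38 ± 0.07, adjusted p = 0.00499). It was the only one that edgeR called among 16 chaperone genes, and DESeq2 called 2. Epn3, an endocytic adaptor (27.2 to 47.5 against 57.8 to 75.8 CPM, 0.90 ± 0.15), and Abat, the GABA transaminase (11.4 to 17.0 against 21.1 to 27.3 CPM, 0.80 ± 0.13), were also higher under PBS.

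Other calls on this side lay near the threshold and were lost when single libraries were left out. Tnnt2, cardiac troponin T, was the second called of 22 sarcomere genes beside Csrp3 (4549 to 5183 against 5765 to 6212 CPM, 0.33 ± 0.08, adjusted p = 0.0465), and it lost the call without any 1 of the 8 LPS libraries (0.053 to 0.164). Pdhb, a pyruvate dehydrogenase subunit (453 to 472 against 500 to 680 CPM, 0.34 ± 0.08, adjusted p = 0.0496), lost it without each library except deficient 1 (0.0783 to 0.152 for the LPS libraries). Among the 22 sarcomere genes DESeq2 called 5 higher and limma-voom 4, and 20 were positive. Of the 15 genes named for the size of their rise, 7 stayed called without any 1 LPS library. Bcl2l1, Tent5b, Tmem35a, Klhl40, Lmod3, Tuba8 and Lmcd1, with folds of 1.92 to 2.83, lost the call without 4 to 7 of the 8, reaching an adjusted p of 0.0654 to 0.177. Pln, the brake on the calcium pump, had 272, 331, 411 and 316 CPM in flox and 446, 382, 503 and 510 CPM in deficient hearts (0.47 ± 0.11, adjusted p = 0.0566, and 0.043 with limma-voom, 0.00595 with DESeq2, 0.0081 without flox 3 and 0.0257 without deficient 2). None of 26 calcium handling and ion channel genes was called by edgeR, with 5 at an unadjusted p under 0.05 and 1 called by each of DESeq2 and limma-voom. Of all genes tested edgeR called 1.23%, with 9.13% at an unadjusted p under 0.05.

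**Figure D3:**
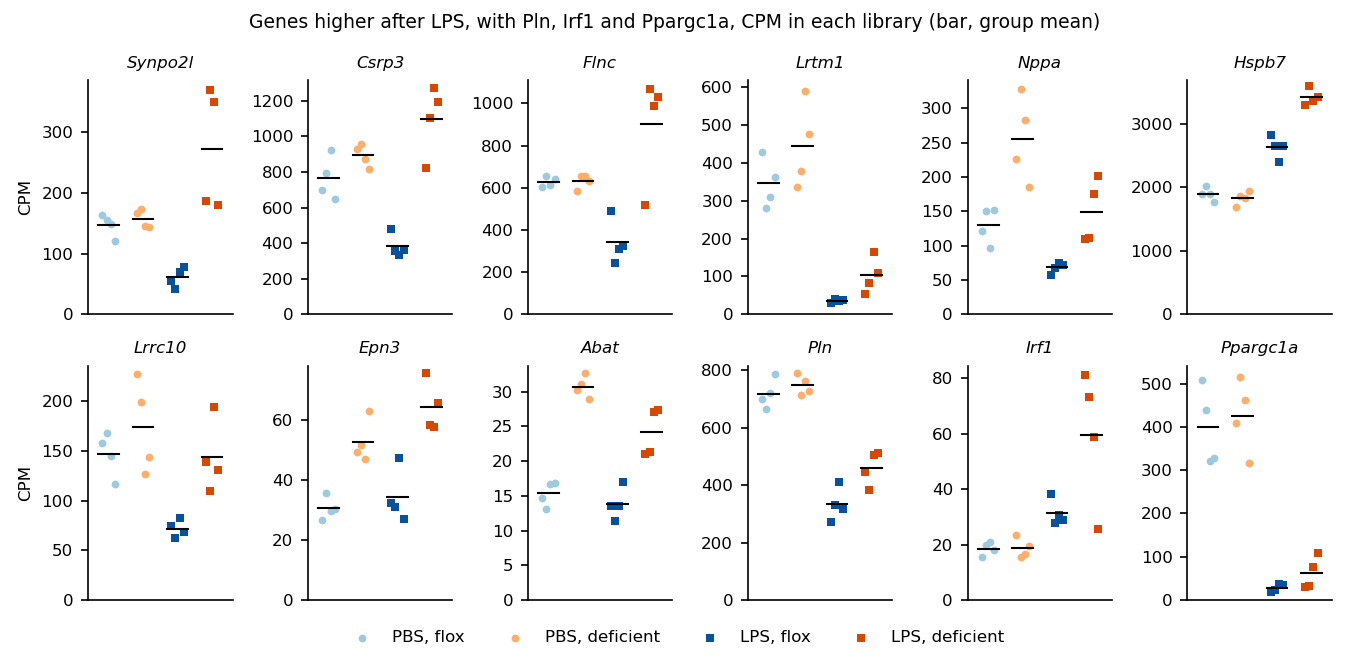
CPM in each library of 9 genes higher in deficient hearts after LPS and of Pln, Irf1 and Ppargc1a, which were not called, drawn as circles for PBS and squares for LPS with a bar at the group mean (linear axes from 0). Synpo2l, Csrp3 and Flnc show flox LPS squares below both PBS groups.

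Genes downstream of β-oxidation showed no such calls, and with 1.23% of all genes tested called by edgeR, lists of this size may hold none. At an unadjusted p under 0.05 the share over all genes tested was 9.13%. Of 21 genes of the tricarboxylic acid cycle, 72 nuclear subunits of oxidative phosphorylation and 13 genes of the mitochondrial genome, edgeR called 0, with 2, 4 and 3 at an unadjusted p under 0.05. DESeq2 called 1, 0 and 0 of them and limma-voom 0. The medians were 0.04, 0.06 and 0.19, and 16 of the 21, 61 of the 72 and 13 of the 13 were positive. Cs, citrate synthase, had 1011 to 1060 CPM in flox and 889 to 999.5 CPM in deficient hearts (-0.16 ± 0.06, adjusted p = 0.381). Ndufa6, a subunit of complex I, ran from 112 to 132 CPM against 132 to 150 CPM (0.20 ± 0.08, adjusted p = 0.43). For 16 PPAR, RXR and cofactor genes the count of calls was 0 with each of the 3 tools, and 3 of them reached an unadjusted p under 0.05. Ppargc1a, the PPAR coactivator PGC-1α, had 18.6, 23.4, 36.6 and 34.9 CPM in flox and 29.3, 32.9, 76.8 and 108 CPM in deficient hearts (1.12 ± 0.35, adjusted p = 0.192), against PBS means of 399 and 426 CPM.

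Inflammatory and interferon genes held no edgeR calls either, against 1.23% called and 9.13% at an unadjusted p under 0.05 over all genes tested. At a share of 1.23%, lists of this size may hold no call. Of 46 cytokine, chemokine and NF-kB target genes and 42 interferon response genes, edgeR called 0, with 3 and 1 at an unadjusted p under 0.05, DESeq2 called 0 and 1, and limma-voom 0. The medians were 0.22 and 0.27, and 35 of the 46 and 39 of the 42 were positive. Interferon sums overlapped between genotypes, at 3420 to 8090 CPM in flox and 3970 to 10200 CPM in deficient hearts, highest in deficient 3 and lowest of its group in deficient 4. Irf1, an interferon-induced transcription factor, had 38.1, 27.6, 30.5 and 28.8 CPM in flox and 81.3, 73.1, 58.7 and 25.5 CPM in deficient hearts (0.93 ± 0.25, adjusted p = 0.105, 0.0106 with DESeq2 and 0.000734 without deficient 4).

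Markers of other cell types were also compared, beside 1.23% called by edgeR and 9.13% at an unadjusted p under 0.05 over all genes tested. Of 17 macrophage markers edgeR and limma-voom called 0 and DESeq2 1, with 6 at an unadjusted p under 0.05 and a median of 0.32. Of these markers 15 were positive, and 5 did not overlap between genotypes (over all genes tested 2.79% did not overlap as lower and 2.53% as higher). The macrophage marker sums ran from 211 to 283 CPM in flox and from 253 to 332 CPM in deficient hearts. The neutrophil marker sums ran from 71.2 to 129 CPM against 64.4 to 98.2 CPM. Of 14 endothelial markers 11 were negative, with a median of -0.18 and 5 at an unadjusted p under 0.05. Besides the 1 called by edgeR, 4 did not overlap between genotypes, and limma-voom called 1 and DESeq2 2 lower. The edgeR call was Flt1, a VEGF receptor (127 to 153 against 97.0 to 107 CPM, -0.42 ± 0.09, adjusted p = 0.0192). Its call was lost without flox 2, flox 3, deficient 1 or deficient 4 (0.0513 to 0.0795). The part of these cell types in the genotype differences was not tested.

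**Figure D4:**
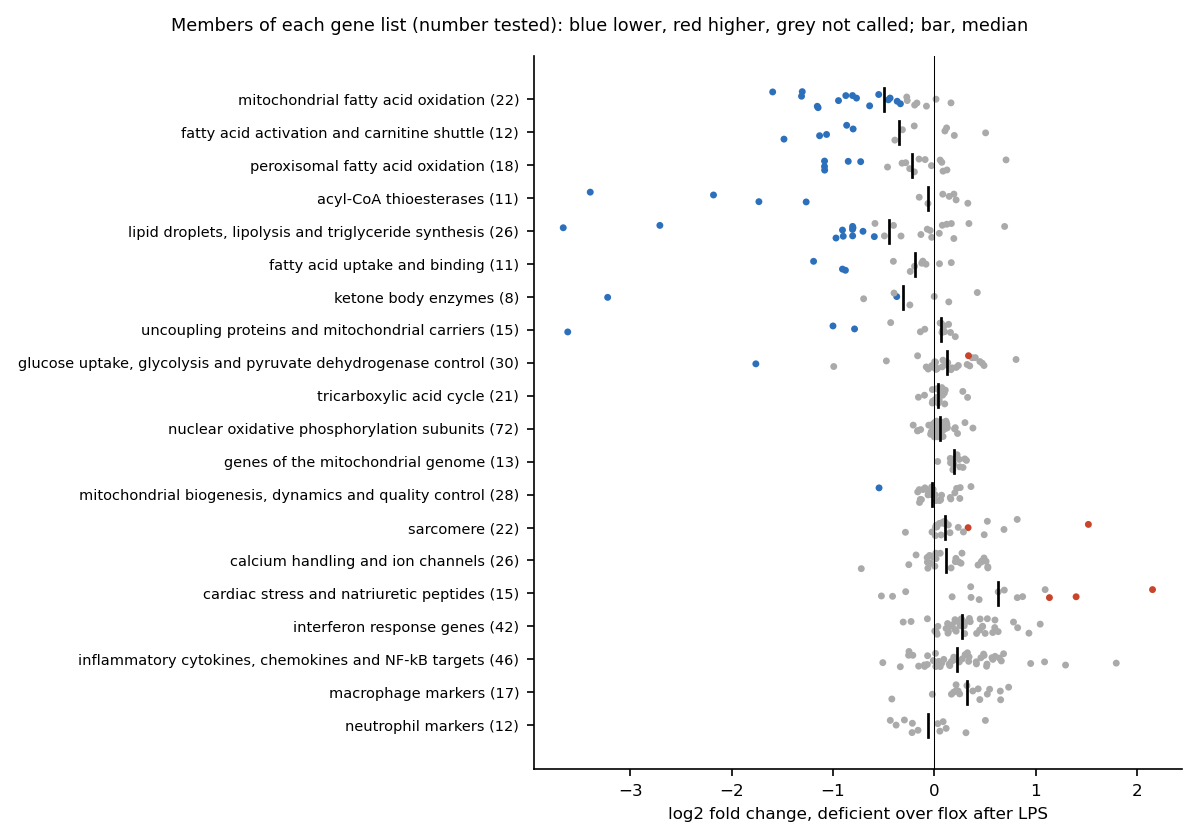
Log2 fold change of deficient over flox hearts after LPS for the tested members of 20 gene lists, 1 point per gene with the list's median as a bar. Lower calls (blue) lie in the fatty acid lists and a few others, and the tricarboxylic acid cycle, oxidative phosphorylation, interferon and inflammatory lists hold grey, uncalled points alone.

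The same genotype comparison under PBS compares no library used in the one after LPS. Both come from the same fit, with a spread shared over all 16 libraries, so the call lists are not independent. Under PBS 75 genes were lower (0.401%) and 6 higher (0.0321%), or 10 higher without LPS deficient 1. Lower in both were 63 genes, 39.6% of the 159 and 84% of the 75. Higher in both were 3 genes, Esr1, Abat and Epn3, 4.17% of the 72 and 50% of the 6. No gene was called in opposite directions. Over the 159 lower genes the median difference was -0.87 after LPS and -0.51 under PBS, and 144 had the same sign. Over the 72 higher genes the medians were 0.73 and 0.12.

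Whether the genotype effect itself differed between treatments was tested by the interaction. It called 0 of 18713 genes (0.0%) with edgeR and 0 with limma-voom, while 1075 genes (5.74%) had an unadjusted p under 0.05. DESeq2 called 29 genes with a lower (0.155%) and 26 with a higher effect (0.139%) after LPS. With edgeR, 1 gene was called without PBS deficient 4, without LPS flox 1 or without LPS deficient 3, 2 without LPS deficient 4 and 4 without LPS deficient 1. The 96 lower and 69 higher genes called after LPS and not under PBS are therefore not shown to depend on LPS by the edgeR test. For Slc25a34 the genotypes had PBS means of 191 and 200 CPM and LPS means of 201 and 101 CPM (interaction adjusted p = 0.128).

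**Figure D5:**
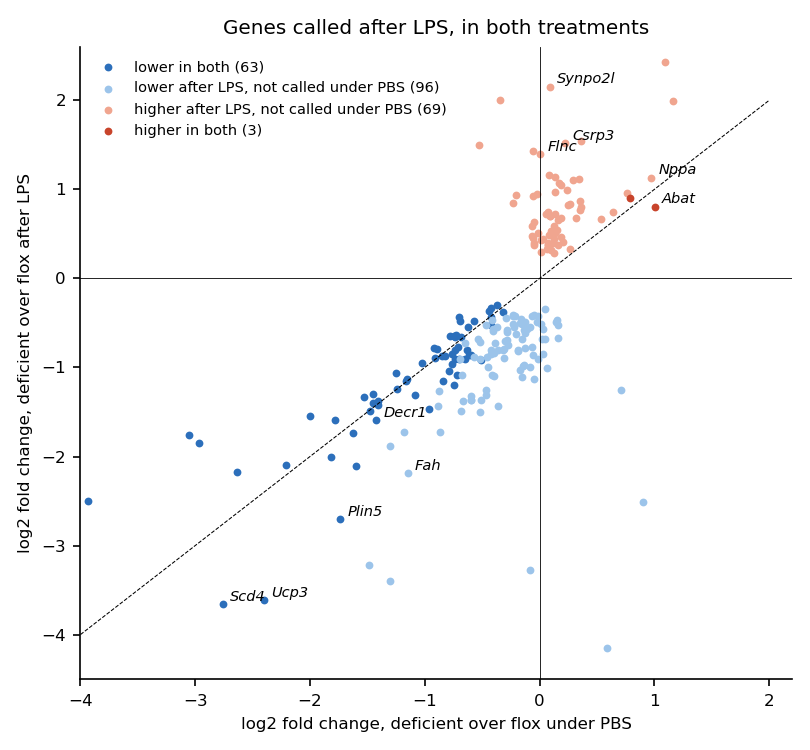
Log2 fold change of deficient over flox hearts under PBS (horizontal) and after LPS (vertical) for the genes called after LPS, coloured by their calls, with the dashed line marking equal effects. Outside the axes lie 5 called genes, Esr1 and Chrna2 among them, and Synpo2l, Csrp3 and Flnc lie near 0 under PBS.

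A further 2 pairs of lower genes stood head to head, chosen after their values were seen. P3h4 and Fkbp10, both of the collagen-modifying machinery, lie 860 bases apart on chromosome 11. P3h4 ran from 21.5 to 35.4 CPM in flox against 10.2 to 12.8 CPM in deficient hearts (-1.33 ± 0.15), and Fkbp10 from 30.4 to 44.1 CPM against 11.5 to 18.2 CPM (-1.24 ± 0.15). Fkbp10 overlaps Nt5c3b on the other strand (mean 1990.6 and 1219.8 estimated counts), and without a stated strand setting their reads may be shared. Elmod3, an Arl GTPase regulator, and Retsat, a retinol saturase, lie 61 bases apart on chromosome 6. Elmod3 ran from 29.6 to 33.5 CPM against 16.2 to 17.7 CPM (-0.92 ± 0.11), and Retsat from 35.9 to 53.5 CPM against 20.7 to 28.6 CPM (-0.89 ± 0.16). The RefSeq window of Retsat (GRCm38.p6, chr6:72598352-72598651, plus strand) is shown for comparison with that of Hadhb, with the bases between the genes in capitals:
Retsat window: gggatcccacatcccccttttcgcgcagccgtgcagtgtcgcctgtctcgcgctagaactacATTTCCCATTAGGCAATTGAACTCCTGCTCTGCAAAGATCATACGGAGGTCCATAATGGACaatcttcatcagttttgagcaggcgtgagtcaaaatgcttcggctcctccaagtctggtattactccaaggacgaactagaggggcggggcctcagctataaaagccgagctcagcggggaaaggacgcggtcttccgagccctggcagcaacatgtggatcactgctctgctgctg
This stretch is 44.3% G or C with 1 CG dinucleotide within a window of 54.7%, and the window too holds no AGGTCA on either strand.

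PPARα and RXR bind a direct repeat of AGGTCA with 1 base between the copies. Among 111 lower genes with a RefSeq window (250 bases before to 50 after the start), 1 held this repeat on either strand (0.901%), against 0 of 56 higher genes and 7 of 12305 genes tested (0.0569%). With AGGNCA in place of AGGTCA the shares were 0.901% and 0.317%. A single AGGTCA was in 16.2% of the lower genes' windows and 15.5% of those of all genes tested. The 1 match was in the window of Igsf23, an immunoglobulin superfamily gene chosen for this (GRCm38.p6, chr7:19950694-19950993, minus strand), and begins 72 bases before the start on the opposite strand, shown in capitals:
Igsf23 window: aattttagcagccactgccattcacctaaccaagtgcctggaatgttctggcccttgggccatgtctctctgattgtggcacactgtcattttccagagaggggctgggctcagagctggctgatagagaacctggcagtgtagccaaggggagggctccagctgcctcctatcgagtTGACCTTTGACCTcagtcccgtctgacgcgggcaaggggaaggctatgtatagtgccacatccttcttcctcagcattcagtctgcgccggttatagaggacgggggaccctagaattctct
Igsf23 had 3.45, 4.07, 2.76 and 2.42 CPM in flox and 1.39, 0.686, 0.929 and 1.34 CPM in deficient hearts (-1.55 ± 0.32, adjusted p = 0.0187). Its call was lost without flox 1, flox 2, deficient 2 or deficient 3 (0.0565 to 0.0748). A match is a description of letters in this window and not a binding site, and sites farther away were not searched.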

How the data were processed

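The authors deposited 1 table of estimated counts per library, whole numbers per gene symbol and not scaled between libraries. Listed in the submitters' processing notes are the build GRCm38 and the tools StringTie 1.3.3b, HISAT, fastp 0.23.2 and DESeq2 1.30.1. Which of them made the counts is not given in the sources used here. Per the labels, libraries were stranded; the strand setting of the counting is not given there. Among low values 4 occurred 12837 times, 3 5293 times and 5 7268 times, so 1 read pair was taken as about 4 counts. The value 1 occurred 9566 times, more often than 3 or 5, and lies below the 4 counts taken for 1 read pair. This reading was not tested, and the floor in estimated counts rests on it. On this reading precision follows from totals divided by 4 (16392284 to 18624650 in the LPS libraries). Of 55421 lines, 27 with date-like symbols were dropped and 112 repeated symbols were summed.

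Genes passing filterByExpr were fitted over all 16 libraries as 4 group means (12 residual degrees of freedom) with TMM factors by edgeR 4.0.16 glmQLFit and tested by glmQLFTest, with Benjamini-Hochberg adjustment and calls under 0.05. The standard error is the log2 fold change divided by the root of F. CPM use TMM-scaled totals. Alternatives used limma 3.58.1, DESeq2 1.42.0 and R 4.3.3, and tables Python 3.11.15, pandas 2.3.3, numpy 2.4.6 and matplotlib 3.10.9. The fit was tested on simulated data.

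Named genes are Ppara and Esr1, the 15 highest and 15 lowest called genes with a mean of at least 2 log2 CPM and no overlap, up to 4 members of each list by adjusted p (2 where none passed) and up to 10 called in both treatments, 107 in all, of which most are printed. Members and lists were chosen with earlier results of these data known. Coordinates are GENCODE vM21 on GRCm38, and promoter windows RefSeq GRCm38.p6. Some named genes are not reported here.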

Additional observations from a re-analysis of the deposited data

Results flagged for a closer look

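In 8 of 164 groups of 4 LPS libraries (82 genes, 2 genotypes) the lowest or highest library stood apart from the other 3 by more than Dixon's 95% limit, and chance gives about 1 in 20. Of these 8, 4 concern deficient 3. Acsl1 was 238.8 CPM there against 334.3 to 343.2 CPM in the other deficient hearts, Slc22a5 10.63 against 13.33 to 13.85 CPM, Fkbp10 11.51 against 17.48 to 18.2 CPM and Tent5b 20.68 against 8.484 to 8.801 CPM. In deficient 1, Flnc was 520.1 CPM against 986 to 1070 CPM, Bnip3 252.4 against 184.8 to 194.9 CPM and Chrna2 0.06598 CPM against 0 in the other 3. Cpt1b was 586.7 CPM in flox 3 against 506.6 to 513.7 CPM in the other flox hearts.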

How the results depend on the processing

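After LPS, the count of lower genes ranged from 123 to 168 and that of higher genes from 33 to 79 when 1 library was left out, against 159 and 72. DESeq2 gave 244 lower and 200 higher. The higher count was 44 without a filter on low counts, 25 in a fit to the 8 libraries alone, 45 with the replicate block and 44 without flox 4 and deficient 3 together, and the lower counts there were 147, 116, 142 and 145. RLE and upper-quartile factors, limma-voom, a stricter filter (1 CPM in 8 libraries), counts divided by 4 and mitochondrial transcripts left out kept both within 1.5 times, at 154 to 171 and 68 to 94. Under PBS the lower count was 135 with DESeq2 and 61 to 81 with 1 library left out, and the higher count 48 with DESeq2, 12 in the fit to 8 libraries and 5 to 10 with 1 left out. The interaction called 55 genes with DESeq2, 4 with the stricter filter, 4 with counts divided by 4, 5 without flox 4 and deficient 3, and 0 to 4 with 1 library left out. The causes were not tested.

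Replicate numbers did not pair the LPS libraries (correlations of same-numbered deviations 0.075, 0.012, -0.066 and -0.036). The largest correlation between LPS libraries of different genotype was 0.156, for flox 4 and deficient 3. Of the lower genes 135 and of the higher 40 were also called with the replicate block. Of 159 lower genes 95 and of 72 higher genes 11 were called under every alternative run. Among 82 genes printed no direction changed. With 4 libraries per group, depth limits what can be seen for genes near the floor of 12 estimated counts.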

Other observations

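Other gene groups of the LPS hearts held few or no calls. Over all genes tested edgeR called 1.23%, with 9.13% at an unadjusted p under 0.05, so lists of this size may hold none. Of 17 branched-chain amino acid genes, Abat alone was called, and of 28 genes of mitochondrial biogenesis, dynamics and quality control, Bnip3 alone. Of 16 circadian, 14 glucocorticoid-responsive, 18 immediate early and 16 cell cycle genes edgeR, DESeq2 and limma-voom called 0, with 2, 2, 1 and 0 at an unadjusted p under 0.05. The tools also called 0 of 10 monocyte, 8 T and NK cell, 7 B cell, 15 fibroblast and 10 smooth muscle markers, with 1 smooth muscle marker at an unadjusted p under 0.05.

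Of 17 autophagy and lysosome genes edgeR called 0, with 2 at an unadjusted p under 0.05, and DESeq2 and limma-voom called 1 each. Ulk1, the kinase that starts autophagy, had 175, 144, 127 and 136 CPM in flox and 127, 101, 87.9 and 91.2 CPM in deficient hearts (log2 -0.51 ± 0.12, edgeR adjusted p = 0.0544, and 0.00769 without deficient 1). Flox 3 and deficient 1 had about the same level. Erythroid marker sums varied widely within both genotypes, from 100 to 430 CPM in flox and from 34.1 to 308 CPM in deficient hearts.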
